A study of Mus musculus with 6 samples.

Results

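The 9 genes described here form the core of necroptosis, a lytic form of programmed cell death, together with the caspase-8 complex that restrains it. They were chosen by symbol (Mlkl, Ripk3, Ripk1, Zbp1, Tlr3, Ticam1, Casp8, Fadd and Cflar). All 9 were present among the 23203 named gene symbols of the count table and passed the expression filter, which kept 19741 genes. RNA had been sequenced from splenic endothelial cells, 1 library per mouse, of 6 Apoe-knockout mice, a hyperlipidaemic model that lacks the apolipoprotein needed to clear lipoprotein remnants from the blood. For 8 weeks all 6 mice were fed a high cholesterol diet and given an antisense oligonucleotide (ASO), which binds its target RNA by base pairing and leads to its loss. In 3 mice (1601, 1602 and 1608) this was a control ASO, and in the other 3 (1603, 1604 and 1607) an ASO against Mlkl, so the Apoe deletion, the diet and the receipt of an ASO were shared by both groups. An ASO given to a mouse is not restricted to endothelial cells. The sources used here do not give the dose.

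In necroptosis, RIPK1 and RIPK3 bind each other through a shared interaction motif, and RIPK3 phosphorylates the pseudokinase MLKL, which then oligomerises and breaks the plasma membrane. RIPK3 can also be engaged without RIPK1 by ZBP1, a sensor of Z-form nucleic acids, or by the adaptor TRIF (gene Ticam1) below the double-stranded RNA receptor TLR3. Caspase-8, recruited by the adaptor FADD and paired with cFLIP (gene Cflar), cleaves the RIP kinases and so holds the pathway back. In mice, loss of caspase-8 or FADD is lethal before birth with vascular failure, and removal of Ripk3 or Mlkl prevents that death, which makes endothelium a tissue in which this brake is known to matter.

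Library totals ranged from 59988846 to 87776706 estimated counts. Levels are given as CPM, counts per unit of library size, with sizes scaled by the TMM method. All 15 pan-endothelial markers examined were present, and their summed level was 3215 to 6182 CPM in control and 4187 to 4542 CPM in MLKL ASO mice. Of 11 marker lists for endothelial and other spleen cells, 9 had summed levels that overlapped between the groups, and 0 markers stood at 0. Of the lists that did not overlap, T and NK cell markers (18 of 18 present) summed to 423 to 999 CPM in control and 299.6 to 364 CPM in MLKL ASO mice, and dendritic cell markers (10 of 10 present) to 428 to 659 and 306 to 372 CPM. Erythroid markers (13 of 14 present) summed to 47231 to 126891 CPM in control and 70299 to 159091 CPM in MLKL ASO mice. Gene by gene, lists whose sums overlapped also leaned to 1 side. B cell markers lay below 0 in 10 of 10 genes (median log2 difference -0.67) and plasma cell markers in 8 of 8 (-0.71). Megakaryocyte and platelet markers lay above 0 in 12 of 12 (1.01), erythroid markers in 13 of 13 (0.51) and neutrophil markers in 12 of 13 (0.43). Pan-endothelial markers lay below 0 in 10 of 15 (-0.12) and macrophage markers in 10 of 14 (-0.12), against 52.0% of all genes. RNA of blood and immune cells was thus in every library. Leukocytes transcribe necroptosis genes too, and the part of these cells in the values below was not tested. In such bulk samples, fewer cells of a type and less RNA per cell cannot be told apart. Control mouse 1608 stood apart on the first principal component (30.2% of the variance), at 90.8 against 17.1 or less in the other mice. Results are therefore also given without mouse 1608. Control mice 1601 and 1602 lay at -1.66 and 17.1 on this component. MLKL ASO mice 1603, 1604 and 1607 lay at -28.7, -44.7 and -32.9. Every MLKL ASO mouse was thus below every control mouse on the component, and the cause was not tested.

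Mlkl, the effector of the pathway and the target of the ASO, was lower in every mouse given the MLKL ASO. It measured 30.1, 31.5 and 38.7 CPM in control mice 1601, 1602 and 1608, and 7.52, 5.80 and 3.73 CPM in MLKL ASO mice 1603, 1604 and 1607. No control mouse overlapped with an MLKL ASO mouse, and the labels and the target gene went together in all 6 mice. Relative to the mean of the control mice, 22.5%, 17.4% and 11.2% of the Mlkl signal remained in mice 1603, 1604 and 1607.

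The group means of Mlkl were 33.4 ± 4.59 CPM (SD, n = 3) and 5.68 ± 1.90 CPM (SD, n = 3), a 5.88-fold difference. On the log2 scale the difference, MLKL ASO minus control, was -2.56 with a standard error of 0.27 and a 95% interval from -3.20 to -1.92. In edgeR's quasi-likelihood test the unadjusted p of 2.36e-05 was the 7th smallest of all genes, and the adjusted p over all genes, 0.0666, lay above the threshold of 0.05. DESeq2 placed Mlkl past the threshold (adjusted p = 1.20e-15), as did limma-voom with sample weights (adjusted p = 0.0182). The exact two-sided permutation test over the 6 mice gave p = 0.1, and a design of this size can reach no smaller value. Without mouse 1608 the log2 difference was -2.44 (edgeR adjusted p = 0.0565). Over 14 alternatives the adjusted p ranged from 1.2e-15, the value of DESeq2, to 0.322, the value of edgeR without mouse 1604. In the authors' deposited table the log2 fold change of Mlkl was -2.69 with an adjusted p of 2.84e-15, the 6th smallest p of that table.

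**Figure D1:**
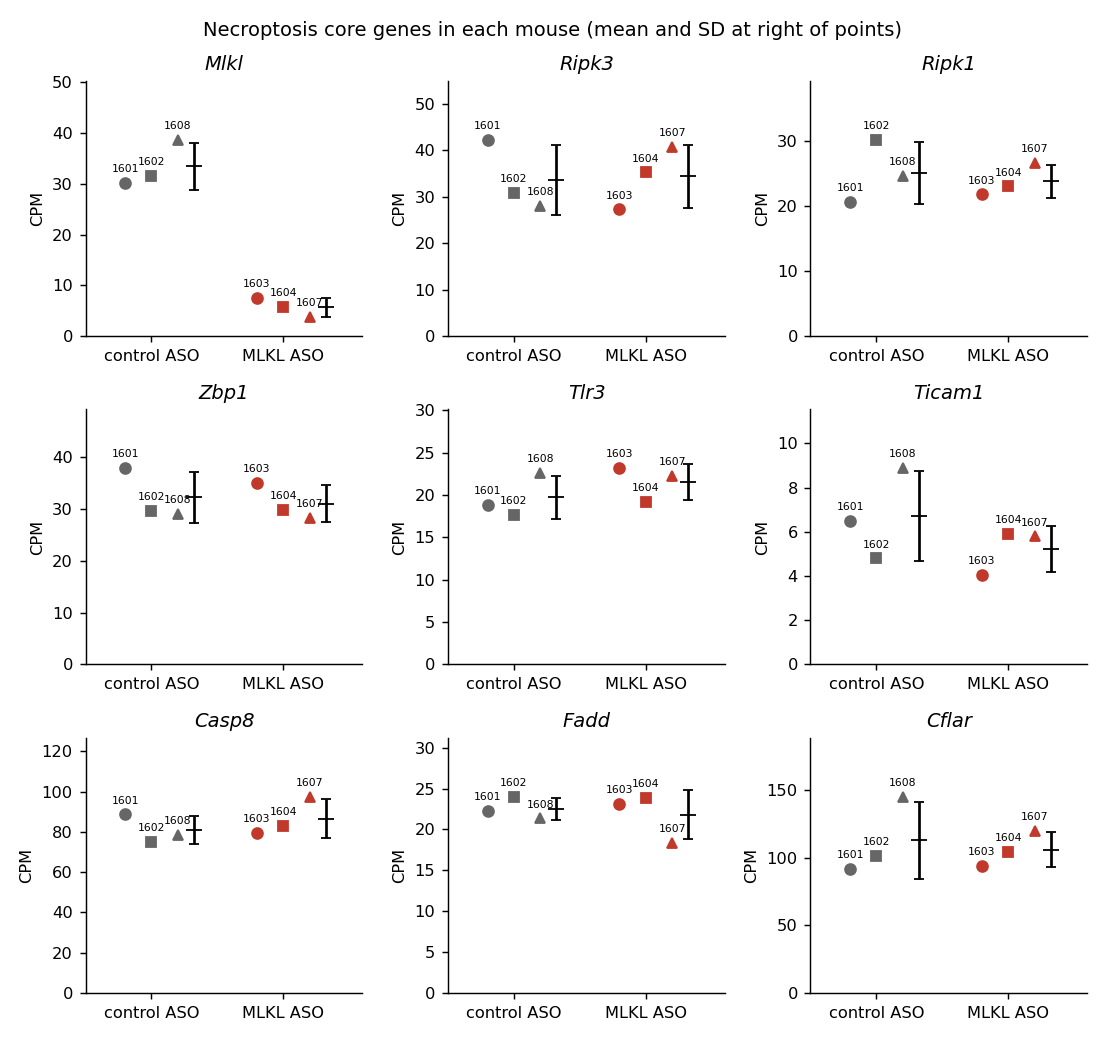
Level of each of the 9 genes in each mouse, in CPM on axes that start at 0, with the mean and SD of 3 mice to the right of each group's points. Mlkl lies at 3.73 to 7.52 CPM in the MLKL ASO mice and at 30.1 to 38.7 CPM in the control mice, while in each of the other 8 genes the points of the groups overlap.

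Ripk3, the kinase that phosphorylates MLKL, did not follow its substrate. It measured 42.3, 30.8 and 28.0 CPM in control mice 1601, 1602 and 1608 and 27.3, 35.3 and 40.8 CPM in MLKL ASO mice 1603, 1604 and 1607. Each group held high and low mice, and the groups overlapped almost entirely. The log2 difference was 0.03 (standard error 0.21, edgeR adjusted p = 0.974). The 95% interval ran from 0.726-fold to 1.44-fold, so a change of the size seen for Mlkl lay far outside it. Any change within the interval remained compatible with the values of these mice. Mouse 1607, which kept the least Mlkl, had the highest Ripk3 level of its group, and mouse 1603, which kept the most, had the lowest.

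Ripk1, the kinase and scaffold at the TNF receptor that can start either survival signalling or cell death, measured 20.6, 30.1 and 24.5 CPM in control mice 1601, 1602 and 1608 and 21.8, 23.0 and 26.6 CPM in MLKL ASO mice 1603, 1604 and 1607. All values of the MLKL ASO mice lay within the range of the control mice. Its log2 difference was -0.08 (standard error 0.18, edgeR adjusted p = 0.903), and the interval ran from 0.713-fold to 1.26-fold. In control mouse 1601 Ripk3 was at its highest and Ripk1 at its lowest among the 6 libraries.

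Among the upstream inputs, Zbp1, the nucleic acid sensor that can recruit RIPK3 directly and is induced by interferon, measured 37.8, 29.6 and 29.1 CPM in control mice 1601, 1602 and 1608 and 35.0, 29.7 and 28.2 CPM in MLKL ASO mice 1603, 1604 and 1607. One mouse of each group stood above the other two, and the remaining 4 mice lay between 28.2 and 29.7 CPM. The log2 difference of Zbp1 was -0.05 (standard error 0.16, edgeR adjusted p = 0.927). Tlr3, the endosomal receptor for double-stranded RNA, measured 18.9, 17.7 and 22.6 CPM in control mice 1601, 1602 and 1608 and 23.1, 19.2 and 22.2 CPM in MLKL ASO mice 1603, 1604 and 1607. Here the groups overlapped, with a log2 difference of 0.13 (standard error 0.16, edgeR adjusted p = 0.790).

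Ticam1, which encodes the TRIF adaptor, was the lowest of the 9 genes in CPM per kilobase of transcript in both groups and the one with the widest relative spread among control mice. It measured 6.49, 4.80 and 8.87 CPM in control mice 1601, 1602 and 1608 and 4.03, 5.89 and 5.79 CPM in MLKL ASO mice 1603, 1604 and 1607. Mouse 1608 held the highest value. The log2 difference was -0.36 (standard error 0.29, edgeR adjusted p = 0.662) and was -0.11 without mouse 1608. With estimated counts of 249 to 615 per library and a coefficient of variation of 30.5% in control mice, the 95% interval for Ticam1 reached from 0.488-fold to 1.25-fold, the widest of the 9 on the log2 scale.

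The 3 genes of the caspase-8 brake differed in level, with Casp8 1st of the 9 genes in CPM per kilobase of transcript in control mice and Fadd 8th. Casp8, the protease that cleaves the RIP kinases, measured 88.7, 75.2 and 78.6 CPM in control mice 1601, 1602 and 1608 and 79.7, 82.9 and 97.5 CPM in MLKL ASO mice 1603, 1604 and 1607. Here the groups overlapped, and the log2 difference was 0.10 (standard error 0.13, edgeR adjusted p = 0.798), the smallest standard error of the 9 genes. Fadd, the death-domain adaptor that recruits caspase-8, measured 22.2, 24.0 and 21.4 CPM in control mice 1601, 1602 and 1608 and 23.2, 23.9 and 18.4 CPM in MLKL ASO mice 1603, 1604 and 1607. Apart from the lower value of mouse 1607 the Fadd levels were close together, with a log2 difference of -0.05 (standard error 0.15, edgeR adjusted p = 0.936).

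Cflar, which encodes cFLIP, the catalytically inactive partner that sets what caspase-8 does, measured 91.8, 101 and 145 CPM in control mice 1601, 1602 and 1608 and 93.9, 104 and 119 CPM in MLKL ASO mice 1603, 1604 and 1607. Mouse 1608 set the top of the range. That mouse also had the highest summed pan-endothelial level, 6182 CPM, and mouse 1601, with the lowest, 3215 CPM, had the lowest Cflar level. The mice between them did not keep this order. Mouse 1602 had a higher pan-endothelial sum than mouse 1607 (4699 against 4339 CPM) but a lower Cflar level (101 against 119 CPM). Whether Cflar and the pan-endothelial level are linked was not tested. The log2 difference of Cflar was -0.09 (standard error 0.19, edgeR adjusted p = 0.893) and took the opposite sign, 0.13, without mouse 1608.

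Across the 9 genes, 0 passed the threshold in edgeR's quasi-likelihood test after adjustment over all genes, where 0.0101% of all genes did so (0.00507% higher and 0.00507% lower). The count at an unadjusted p under 0.05 was 1 of 9, which was Mlkl, against 12.0% of all genes, and DESeq2 called the same gene alone, against 2.61%. The groups did not overlap in 1 of 9, again Mlkl, against 18.7% of all genes. Over the 8 genes besides Mlkl, 3 had a log2 difference above 0 and 5 below, against 52.0% below 0 among all genes, with a median of -0.05, where the median over all genes tested was -0.02. Their 95% intervals all included 0 and together spanned 0.488-fold to 1.44-fold. Without mouse 1608 the log2 difference was -0.09 for Ripk3, -0.09 for Ripk1, -0.13 for Zbp1, 0.23 for Tlr3, 0.08 for Casp8 and -0.09 for Fadd. A p above the threshold does not show that these 8 were equal in the groups, and the intervals give what the 6 mice can and cannot tell.

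**Figure D2:**
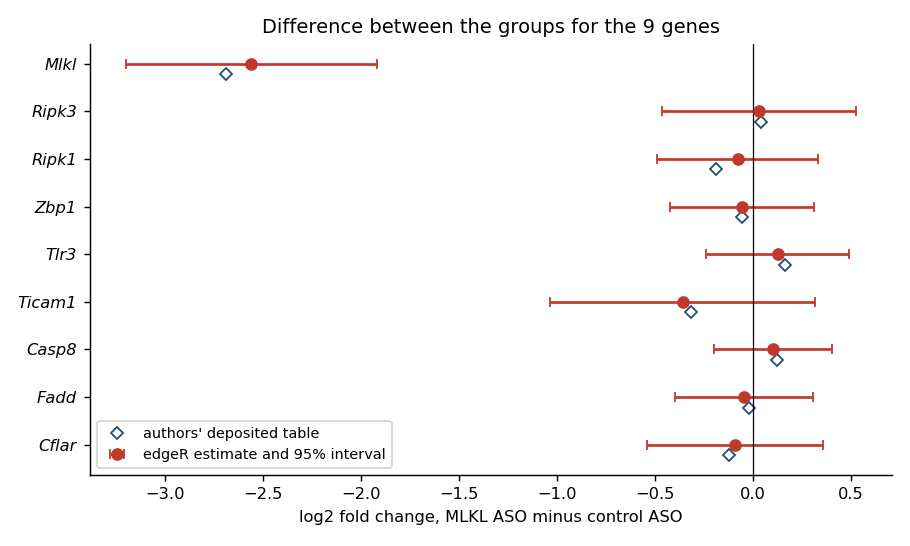
Log2 fold change of each of the 9 genes, MLKL ASO minus control ASO, with the edgeR estimate and its 95% interval (circles and bars) and the value in the authors' deposited table (open diamonds). Mlkl lies at -2.56, and the intervals of the other 8 genes cross 0.

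To order the genes by level, CPM was divided by the mean length of each gene's protein-coding transcripts in GENCODE M21, an annotation that may differ from the one the authors used. In control mice the order in CPM per kilobase was Casp8 (40.5 ± 3.53, SD, n = 3), Cflar (33.4 ± 8.38), Ripk3 (24.6 ± 5.53), Zbp1 (23.3 ± 3.53), Mlkl (21.9 ± 3.01), Tlr3 (8.37 ± 1.09), Ripk1 (6.53 ± 1.24), Fadd (5.77 ± 0.345) and Ticam1 (2.25 ± 0.684). Neighbours in this order overlapped between mice except at the steps from Mlkl to Tlr3 and from Fadd to Ticam1. Mlkl thus stood level with Ripk3 and Zbp1 in control endothelial preparations, well above the adaptors. In MLKL ASO mice it measured 3.73 ± 1.24 CPM per kilobase (SD, n = 3), the 8th of the 9 genes, with a range that overlapped that of Fadd and lay above that of Ticam1. With the longest coding transcript as the length, Casp8 stayed 1st and Ticam1 9th in both groups, Ripk3 came before Cflar, and Fadd came before Tlr3 and Ripk1.

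A ratio of 2 genes within a library does not depend on how the library was scaled. The CPM ratio of Mlkl to Ripk3 was 0.712, 1.02 and 1.38 in control mice 1601, 1602 and 1608 and 0.275, 0.165 and 0.0915 in MLKL ASO mice 1603, 1604 and 1607. The ratios of the groups did not overlap, and every MLKL ASO mouse had less effector transcript relative to its kinase than any control mouse. On the log2 scale, the mean was 0.0035 ± 0.48 (SD, n = 3) in control and -2.63 ± 0.79 (SD, n = 3) in MLKL ASO mice, with an exact two-sided permutation p of 0.1, the smallest possible, and an adjusted p of 0.6 over the 6 distinct ratios computed.

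The balance between brake and accelerator was compared in the same way. The CPM ratio of Casp8 to Ripk3 was 2.10, 2.44 and 2.81 in control mice 1601, 1602 and 1608 and 2.92, 2.35 and 2.39 in MLKL ASO mice 1603, 1604 and 1607, with overlapping groups (exact permutation p = 0.7, adjusted p = 0.8). Turned over, as Ripk3 to Casp8, the same ratio lay between 0.342 and 0.477 in the 6 mice. For Cflar to Casp8 it was 1.03, 1.35 and 1.84 in control mice and 1.18, 1.25 and 1.23 in MLKL ASO mice in the same order, so the spread lay mostly among the control mice (log2 SD 0.42 against 0.046, n = 3 each). The Cflar to Casp8 ratio also overlapped between the groups (exact permutation p = 0.7, adjusted p = 0.8).

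Ripk3 to Ripk1, the pair that assembles the necrosome, had a ratio of 2.05, 1.02 and 1.14 in control and 1.25, 1.53 and 1.53 in MLKL ASO mice (exact permutation p = 0.8, adjusted p = 0.8). Zbp1 to Ripk3 lay between 0.693 and 1.28 in all 6 mice (exact permutation p = 0.8, adjusted p = 0.8). Tlr3 to Ticam1, receptor to adaptor, was 2.90, 3.69 and 2.55 in control and 5.74, 3.25 and 3.84 in MLKL ASO mice. Its groups overlapped, with a log2 difference of 0.46 (exact permutation p = 0.2, adjusted p = 0.6).

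**Figure D3:**
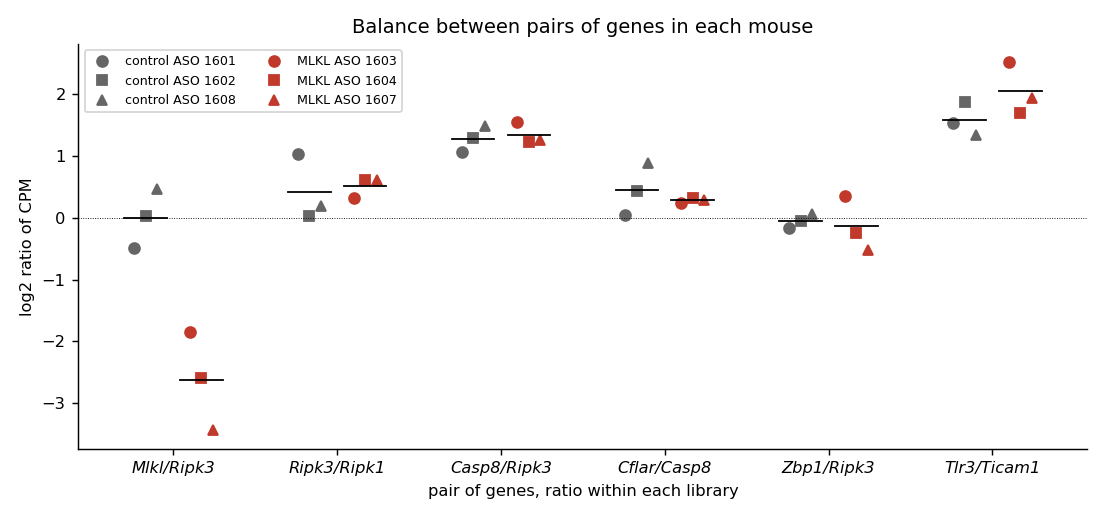
Log2 ratio of CPM for 6 pairs of genes in each mouse, with a line at each group's mean. Only for Mlkl to Ripk3, among the 6 pairs, do the mice of the groups separate, with means of 0.0035 in control and -2.63 in MLKL ASO mice.

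Genes around the core were examined in 6 lists with 99 distinct genes, 97 of them tested. In edgeR's quasi-likelihood test 0 rose and 0 fell past the threshold, and at an unadjusted p under 0.05 there were 4 higher and 15 lower, against 4.86% and 7.13% of all genes. DESeq2 called 1 higher and 1 lower, the latter Itpk1, against 1.14% and 1.48% of all genes. Groups did not overlap in 7 genes that were higher and 22 that were lower, against 8.73% and 10.0% of all genes. T and NK cell, dendritic, B and plasma cell markers lay mostly or all below 0 in the same comparison. Megakaryocyte, erythroid and neutrophil markers lay mostly or all above 0. The part of all these cells in the counts above was not tested.

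The TNF receptor complex builds the ubiquitin platform that keeps RIPK1 in survival signalling. Its list also held genes that take this platform apart, so the counts below have no single direction for survival signalling. Of 21 members 17 lay below 0, with a median log2 difference of -0.21, against -0.02 over all genes tested, of which 52.0% lay below 0. In this list 8 of 21 genes were lower and 2 higher without overlap, against 10.0% and 8.73% of all genes. Among the 8 were Tnfaip3 (log2 difference -0.57, edgeR adjusted p = 0.365) and Cyld (-0.25, edgeR adjusted p = 0.431), which take the platform apart. Both are named here after their values were seen. Traf2, the adaptor that brings the ubiquitin ligases to the receptor, measured 85.1, 85.8 and 97.2 CPM in control mice 1601, 1602 and 1608 and 69.4, 67.8 and 69.7 CPM in MLKL ASO mice 1603, 1604 and 1607, a log2 difference of -0.37 (standard error 0.11, edgeR adjusted p = 0.337). For Ikbkb, the kinase that releases NF-κB and also phosphorylates RIPK1, the values were 120.4, 122 and 112 CPM and 88.0, 94.6 and 95.4 CPM in the same order, a log2 difference of -0.35 (edgeR adjusted p = 0.339). Neither gene passed the threshold, although in both every MLKL ASO mouse lay below every control mouse.

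The list of death ligands and receptors also held Ifngr1 and Ifngr2, the chains of the interferon-γ receptor, which is not a death receptor. The list counted 10 of 13 members below 0, against 52.0% of all genes. Its median log2 difference of -0.34, against -0.02 over all genes, was the value of Ifngr1 itself. In 5 genes, Ifngr1 among them, the MLKL ASO mice were lower without overlap and in 0 higher, against 10.0% and 8.73% of all genes. Fas, the death receptor that recruits FADD and caspase-8, measured 26.9, 31.8 and 31.4 CPM in control mice 1601, 1602 and 1608 and 19.8, 21.0 and 25.5 CPM in MLKL ASO mice 1603, 1604 and 1607 (log2 difference -0.44, edgeR adjusted p = 0.360). Ifngr1, a chain of the interferon-γ receptor, had group means of 286 ± 32.8 and 226 ± 8.30 CPM (SD, n = 3 each; edgeR adjusted p = 0.361). Tnf itself, the ligand best known for starting necroptosis, was low in both groups at 4.36 ± 1.97 and 4.26 ± 0.955 CPM (SD, n = 3 each), and is named here after its values were seen.

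Among regulators and partners of MLKL, 13 of 22 members lay below 0 and the median log2 difference was -0.05. Itpk1, a kinase that makes the inositol phosphates needed for MLKL to be activated, measured 15.0, 10.3 and 15.8 CPM in control mice 1601, 1602 and 1608 and 8.05, 7.76 and 8.67 CPM in MLKL ASO mice 1603, 1604 and 1607. All MLKL ASO mice lay below all control mice. Over the whole list, 2 of 22 genes were lower and 2 higher without overlap, near the 10.0% and 8.73% of all genes. The log2 difference of Itpk1 was -0.75 with a standard error of 0.20 and did not pass in edgeR (adjusted p = 0.323). DESeq2 called Itpk1 lower (adjusted p = 0.0415), as it did 1.48% of all genes. It did not pass in limma-voom with sample weights (adjusted p = 0.205). Aurka, a mitotic kinase reported to restrain the RIPK1 and RIPK3 complex, had group means of 23.3 ± 9.43 and 43.8 ± 10.9 CPM with overlap (SD, n = 3 each; edgeR adjusted p = 0.359).

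Downstream of caspase-8, the apoptosis list was split, since 7 of 13 members lay above 0, and the median log2 difference was 0.01. Bax, which permeabilises mitochondria, had means of 181 ± 19.0 and 219 ± 14.6 CPM with overlap (SD, n = 3 each; edgeR adjusted p = 0.430).

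Pyroptosis, the other lytic death pathway, had 8 of 11 tested members below 0 and a median log2 difference of -0.21, which took the opposite sign, 0.056, without control mouse 1601 and was -0.31 without control mouse 1608. Gsdmd, the pore-forming gasdermin that plays the part in pyroptosis that MLKL plays in necroptosis, measured 82.7, 82.8 and 96.2 CPM in control mice 1601, 1602 and 1608 and 69.6, 65.7 and 64.8 CPM in MLKL ASO mice 1603, 1604 and 1607. These groups did not overlap, with a log2 difference of -0.39 (standard error 0.11, edgeR adjusted p = 0.339). Over the whole list, 2 of 11 tested genes were lower and 0 higher without overlap, against 10.0% and 8.73% of all genes. Of all genes, 52.0% lay below 0. Casp4, which cleaves gasdermin D on sensing lipopolysaccharide, was also lower without overlap, with means of 34.1 ± 3.30 and 28.5 ± 1.17 CPM (SD, n = 3 each; edgeR adjusted p = 0.464).

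**Figure D4:**
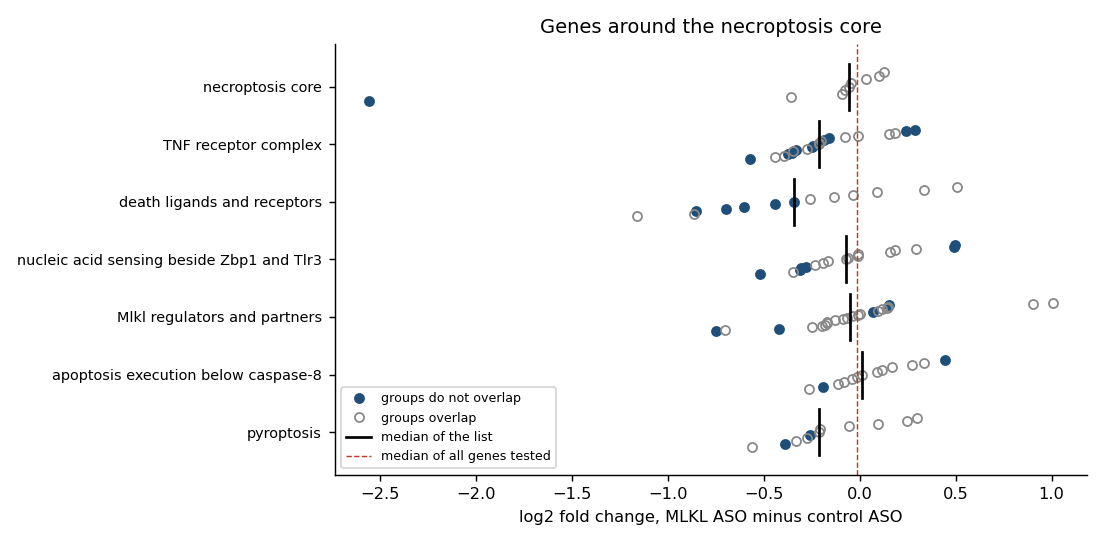
Log2 fold change, MLKL ASO minus control ASO, of each tested gene in the necroptosis core and the 6 lists around it, with a bar at each list's median and a dashed line at the median of all genes tested (-0.02). Filled points mark genes whose groups did not overlap, and Mlkl stands alone at -2.56.

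The list of nucleic acid sensing genes beside Zbp1 and Tlr3 had 12 of 17 tested members below 0 and a median log2 difference of -0.07, and its 2 members with the smallest p were higher. The sign of this median was not stable, at 0.0032 without mouse 1601, 0.0048 without mouse 1608, -0.14 without mouse 1602 and 0.0081 with limma-voom. Ifih1, the double-stranded RNA sensor MDA5, measured 40.5, 43.2 and 50.8 CPM in control mice 1601, 1602 and 1608 and 59.7, 70.0 and 59.2 CPM in MLKL ASO mice 1603, 1604 and 1607 (log2 difference 0.49, standard error 0.14, edgeR adjusted p = 0.325). Eif2ak2, the double-stranded RNA kinase PKR, measured 35.6, 38.7 and 48.0 CPM and 56.1, 57.6 and 58.9 CPM in the same order (log2 difference 0.50, standard error 0.14, edgeR adjusted p = 0.326). In both genes every MLKL ASO mouse lay above every control mouse, although neither passed the threshold. Tlr3 and Zbp1 of the core did not share this separation. Over the whole list, 2 of 17 tested genes were higher and 4 lower without overlap, against 8.73% and 10.0% of all genes.

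Ifih1 and Eif2ak2 are textbook interferon-induced genes, and interferon-activated factors bind the interferon-stimulated response element, searched here as GAAA, any 2 bases, and GAAA again. Promoter windows of 300 bases, from 250 before to 50 after a start site, were taken from RefSeq on GRCm38.p6 and searched on both strands, where the other strand reads TTTC, any 2 bases, TTTC. Such letters stood in 3.44% of all 32851 windows. Of the 9 core genes 8 had an entry, all but Zbp1, and 2 held the letters, Ripk1 (at 1 of its start sites) and Cflar. Of the 78 genes of the other lists with an entry, 5 held them. A gene was counted where any of its windows held the letters, so these counts of genes are not directly comparable with the share of windows. The matches in the core genes and in the genes of the other lists are shown with their values, since members and neighbours of the pathway with the same letters did not share a direction. Each is written 5′ to 3′ in the direction of the gene, with the match in capitals:
Ripk1: aacgttcccgGAAATCGAAAagcgcggaac
Cflar: ccacgtctgcTTTCGGTTTCtgggcgtctc
Ifih1: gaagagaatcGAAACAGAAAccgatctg
Eif2ak2: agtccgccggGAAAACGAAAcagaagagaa
Stat2: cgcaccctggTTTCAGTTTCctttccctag
Tnfrsf1b: ggcctgagggTTTCGCTTTCagtcaccagc
Rbck1: ggactgccacTTTCACTTTCtcttccgggg

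These stretches lie at chr13:34002859-34002888 (plus strand) for Ripk1, chr1:58711487-58711516 (plus) for Cflar, chr2:62646206-62646233 (minus) for Ifih1 and chr17:78882535-78882564 (minus) for Eif2ak2. Those of Stat2, Tnfrsf1b and Rbck1 lie at chr10:128270266-128270295 (plus), chr4:145246861-145246890 (minus) and chr2:152332427-152332456 (minus). While Ifih1 and Eif2ak2 were higher in each MLKL ASO mouse, Ripk1 (log2 difference -0.08) and Cflar (-0.09) overlapped. Stat2, the interferon signal transducer, had means of 59.0 ± 18.4 and 41.2 ± 4.31 CPM (SD, n = 3 each) and Tnfrsf1b, the second TNF receptor, 26.8 ± 9.29 and 16.5 ± 1.99 CPM (SD, n = 3 each), both lower without overlap. The gap was narrow in both. The lowest control and highest MLKL ASO values were 47.0 (mouse 1601) and 44.5 CPM (mouse 1604) for Stat2. For Tnfrsf1b they were 18.4 (mouse 1602) and 17.9 CPM (mouse 1604). Rbck1, a subunit of the linear ubiquitin ligase, overlapped at 83.3 ± 11.4 and 71.7 ± 3.74 CPM (SD, n = 3 each). These 3 genes were named for holding the letters, after the values had been seen. A match describes the sequence only and does not show that a factor binds there.

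By the measure of likeness used, the root mean square difference between centred log2 CPM profiles over the 6 libraries, the genes nearest to Mlkl among 11217 compared were Cyp21a1 (0.340), Elovl2 (0.400) and Sv2b (0.446), where a flat profile would differ by 1.34. Cyp21a1, a steroid hydroxylase, measured 89.7, 80.6 and 121 CPM in control mice 1601, 1602 and 1608 and 21.0, 19.5 and 19.9 CPM in MLKL ASO mice 1603, 1604 and 1607. It fell past the threshold in edgeR (log2 difference -2.27, adjusted p = 0.0223), a call that was lost without mouse 1602, 1603, 1604 or 1607 (adjusted p = 0.0954, 0.182, 0.173 and 0.197) and with scaling to the pan-endothelial markers (0.0553). Elovl2, a fatty acid elongase, had means of 28.6 ± 3.96 and 7.80 ± 1.63 CPM (edgeR adjusted p = 0.0762), and Sv2b, a vesicle glycoprotein, 41.2 ± 2.44 and 11.7 ± 2.19 CPM (edgeR adjusted p = 0.0527). The likeness rests mainly on the step between the groups, which each of them shared with Mlkl. Nearest to Ripk3 were Bcl6, Slc26a2 and Ehd1 (0.0895 to 0.0920, against 0.248 for a flat profile), and nearest to Zbp1 were Lpl, Lancl1 and Mtap (0.0345 to 0.0495, against 0.155).

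Genes that lie beside Mlkl in the RefSeq order did not share its size of difference. Of the 3 tested genes on either side, Rfwd3, a ubiquitin ligase of the DNA damage response, had means of 58.9 ± 8.79 and 60.8 ± 9.48 CPM, Glg1, a Golgi glycoprotein, 63.1 ± 8.98 and 62.1 ± 3.58 CPM, and Znrf1, a ubiquitin ligase, 18.3 ± 4.67 and 17.7 ± 1.66 CPM (SD, n = 3 each). Wdr59, a regulator of mTORC1, had means of 7.12 ± 1.33 and 8.99 ± 1.01 CPM, and Ldhd, a mitochondrial D-lactate dehydrogenase, 2.11 ± 1.19 and 1.21 ± 0.723 CPM, with overlap in each of these 5 genes. In the non-coding 9430091E24Rik the groups did not overlap, at 0.419 ± 0.244 and 1.05 ± 0.357 CPM (SD, n = 3 each), a very low level, with the MLKL ASO mice higher. None of the 6 passed the threshold (edgeR adjusted p = 0.406 to 0.972).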

How the data were processed

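Per the submitters' processing notes, the authors used fastp 0.20.1, Salmon 1.3.0, which assigns reads to transcripts, and DESeq2. Neither the genome build nor the annotation is stated there. The deposited table holds estimated counts per gene symbol, of which 69.3% are not whole. The authors also deposited a DESeq2 table with, per the file headers, a mean normalised signal, a log2 fold change with standard error, a Wald score and p-values. Its direction was settled from the data (Pearson r = 0.978 with the log2 differences computed here, across 19724 genes, which are not independent replicates).

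Estimated counts were rounded, 4 symbols that are numbers were left out, and the rest were analysed in R 4.3.3 with edgeR 4.0.16 (default expression filter, TMM scaling, quasi-likelihood test, two-sided, Benjamini-Hochberg adjustment over all genes, threshold 0.05). DESeq2 1.42.0 and limma 3.58.1 were alternatives, as were other scalings, count filters and leaving out each mouse. Log2 CPM used a prior count of 2. Intervals are 95% intervals from the edgeR fit. The test was tested on simulated data of 19174 genes, where it called 25 of 100 genes with a 2-fold change, 78 of 100 with a 4-fold change and 9 that had none. Within a group the labels tell the mice apart only by their numbers. The p-values set the difference between the groups against the spread between these mice.

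The members and lists were chosen with earlier results of these data known. Named genes are the 9 members, the 2 members with the smallest p of each list around the core, the 3 nearest profiles (mean of at least 5 CPM) to Mlkl, Ripk3 and Zbp1, and 3 tested neighbours of Mlkl on each side. Others are said to have been named after their values were seen. 1 gene that the rule selects is not reported here. Of the 23203 symbols, 84.5% matched RefSeq.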

Additional observations from a re-analysis of the deposited data

How the results depend on the processing

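Over 14 alternatives the log2 difference of Mlkl stayed between -2.81 and -2.32. It passed the threshold with library totals alone (-2.54), with DESeq2 (-2.54), with limma-voom (-2.49) and without globin, immunoglobulin and T cell receptor genes (-2.55), so in each of these 1 core member was called lower. The cause was not tested. Over all genes, the counts higher and lower were 5 and 4 with library totals alone, 4 and 0 when scaled to the pan-endothelial markers, 224 and 291 with DESeq2, 9 and 15 with limma-voom, and 4 and 3 without globin, immunoglobulin and T cell receptor genes. Leaving out each mouse gave 0 to 10 higher and 0 to 9 lower. DESeq2 called 1 gene higher and 1 lower in the lists around the core. Leaving out each mouse moved the median of the TNF receptor complex between -0.30 and -0.18, of apoptosis execution between 0.010 and 0.069, of pyroptosis between -0.31 and 0.056 and of nucleic acid sensing between -0.14 and 0.0048, the last also at 0.0081 with limma-voom.

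The 8 core genes other than Mlkl had intervals that included 0, and 5 of them changed sign when 1 mouse was left out. Leaving out each mouse moved Ripk3 between -0.10 and 0.23, Ripk1 between -0.20 and 0.077, Zbp1 between -0.16 and 0.083, Fadd between -0.12 and 0.066 and Cflar between -0.22 and 0.13. Among neighbours of Mlkl, Glg1 moved between -0.11 and 0.085, Rfwd3 between -0.066 and 0.16 and Znrf1 between -0.23 and 0.13. Of the ratios, Ripk3 to Ripk1 moved between -0.093 and 0.41, Casp8 to Ripk3 between -0.043 and 0.17, Cflar to Casp8 between -0.37 and 0.045 and Zbp1 to Ripk3 between -0.33 and 0.11. Scaled to the pan-endothelial markers, Ripk3 was at -0.034, Glg1 at 0.026 and Znrf1 at 0.037, and with limma-voom Zbp1 was at 0.0061. No paired analysis was possible because the groups share no mouse numbers.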

Other observations

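The deposited estimates of Mlkl were whole numbers in the 3 MLKL ASO libraries (464, 385 and 331) and not whole in the 3 control libraries (2476 to 2681), within a tolerance of 1e-06. Whole values also stood in 3 libraries for Ticam1, 2 for Zbp1 and 1 for Tlr3. In GENCODE M21, 0 of the 2300 distinct stretches of 31 bases in the 4 Mlkl transcripts occur in a transcript of another gene. The share was also 0 for Ripk3, Tlr3 and Ticam1, and was 9.03% for Cflar, 8.36% for Casp8, 5.88% for Ripk1, 3.05% for Fadd and 0.227% for Zbp1, so a part of the reads of these 5 genes could match other genes as well.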
